A study of Mus musculus with 18 samples.

Results

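The CXC chemokines examined here were chosen by name. 9 genes were listed: Cxcl1, Cxcl2, Cxcl3 and Cxcl5, whose products attract neutrophils, Cxcl9, Cxcl10 and Cxcl11, which interferons induce, and Cxcl14 and Cxcl16. Of these 9, 8 had a row in all 18 count tables, which list 22852 gene symbols. Cxcl11 had no row and was not analysed here. All 8 passed the filter on low counts, which left 11305 genes for the tests. Cxcl5 and Cxcl9 did so with few reads, and Cxcl5 only through the groups that had been primed.

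CXC chemokines are small secreted proteins that steer leukocytes along concentration gradients through G protein-coupled receptors. Cxcl1, Cxcl2, Cxcl3 and Cxcl5 act on Cxcr2, the main chemokine receptor of neutrophils, and in macrophages their genes are classical targets of NF-κB downstream of the LPS receptor TLR4. Cxcl9, Cxcl10 and Cxcl11 act on Cxcr3, found mainly on activated T cells and NK cells, and their transcription in macrophages leans on type I and type II interferon through STAT and IRF factors. Cxcl16 is made as a membrane-anchored ligand of Cxcr6 that proteases can shed, and Cxcl14 is a distant member of the family whose receptor use is debated. In LPS tolerance, macrophages that have met LPS respond less to a second dose, but not at every gene.

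The libraries were made from mRNA of bone marrow-derived macrophages (BMDMs) of C57BL/6 mice, grown in medium conditioned by L929 cells. There were 6 groups of 3 biological replicates, numbered R1 to R3. Unstimulated BMDMs received no LPS. LPS-primed BMDMs were kept with 100 ng/ml Salmonella LPS for 24 h. LPS-tolerant BMDMs were primed in the same way, the medium was removed, and 10 ng/ml LPS was given for 3 h. LPS-stimulated BMDMs received a single dose of 10 ng/ml, and the 3 h of that dose were read from the treatment scheme of the study. In the 2 carboplatin groups, 25 µM carboplatin, a platinum drug that crosslinks DNA, was added 1 h before the priming LPS, and these cells were then handled as LPS-primed or LPS-tolerant. The primed and the tolerant group with carboplatin therefore share everything with their controls but the drug.

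Between 6869667 and 14708099 read pairs per library were counted on genes (median 8986463). All 9 macrophage markers examined (among them Adgre1, Csf1r and Cd68) had reads in every group, with a summed level of 15291 to 32755 CPM (counts scaled to library size) over the samples. Ly6g, which defines neutrophils, had no read in any library. S100a8, a marker of neutrophils that stimulated macrophages can also express, was the neutrophil marker with enough reads to be tested. The summed level of the 8 neutrophil markers was 0.879 to 1.67 CPM in unstimulated, 9.06 to 47.1 CPM in LPS-primed, 15.03 to 57.7 CPM in LPS-tolerant and 4.39 to 12.9 CPM in LPS-stimulated BMDMs. The summed level of 5 B cell markers was 28.7 to 168 CPM in unstimulated, 7.69 to 29.1 CPM in LPS-stimulated and at most 1.36 CPM in all other samples. Single markers of other cell types moved too. Dcn (stromal cells) rose by 6.75 in LPS-primed BMDMs, to 4.88 ± 1.67 CPM (SD, n = 3), and by 4.04 after the single dose. It had 0 to 1 read in unstimulated and 0 to 13 in LPS-stimulated libraries, so both rises start near the floor. Cdh5 (endothelial cells) rose by 5.44 after the single dose, to 12.9 ± 2.06 CPM (SD, n = 3). In LPS-primed BMDMs Kit (mast cells) fell by 5.54, Cd2 (T cells) fell by 3.84 and Kdr (endothelial cells) fell by 1.29. Other markers of these types were absent or sparse. Cd3d, Cd3e, Cd3g, Mcpt4, Cpa3, Mcpt8 and Fcer1a had no read in any library. Col1a1, Col1a2, Col3a1, Pdgfra and Lum had at most 6 reads per library, and Tek at most 2. The part of any such cells in the results was not tested. In these bulk samples, fewer cells of a type and less RNA per cell cannot be told apart.

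Levels are given in CPM after scaling by TMM, and differences as log2 fold changes with their standard error (SE). A gene passed the test at an adjusted p under 0.05 in comparisons of LPS treatments and under 0.25 in comparisons with and without carboplatin. These adjusted p limits are those of the study, but the fold limit it set beside them, a log2 fold change of over 2 in either direction, was not applied here. Genes with smaller changes, such as Cxcl14 and Cxcl16, can therefore pass here. All adjusted p are from the quasi-likelihood test of edgeR, adjusted by Benjamini-Hochberg over the 11305 genes, with 3 samples per group. Samples with the same replicate number deviated together, so a fit with the number as a replicate block is given where it changes a call of a member. That fit takes the shift of a replicate number to be the same in every group.

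Of the members with a row, 6 lie on chromosome 5 (GRCm39). Cxcl5 (chr5:90907186-90909483), Cxcl3 (chr5:90933962-90937459), Cxcl1 (chr5:91039094-91040974) and Cxcl2 (chr5:91051730-91053797) stand on the forward strand in one cluster, with Ppbp and Pf4 between Cxcl5 and Cxcl3. Cxcl9 (chr5:92469206-92475945) and Cxcl10 (chr5:92494497-92496748) stand farther along on the reverse strand. Cxcl14 (chr13:56436352-56444603) and Cxcl16 (chr11:70344517-70352620) lie elsewhere, both on the reverse strand. Cxcl2 and Cxcl3 are close paralogs, and 11 of the 917 stretches of 100 bases in the Cxcl3 transcript also occur in Cxcl2. Cxcl10 shares 34 stretches with Art3 on the opposite strand, which had 0 to 10 reads. Cxcl5, a gene with few reads, shares 97 of its 1476 stretches with Gm72413, a noncoding gene on the opposite strand. Gm72413 has no row in the count tables, so its reads are not known. Of the 2892 such stretches in Cxcl16, 2424 also lie in Med11 or Zmynd15 on the opposite strand, with 107 to 360 reads for those genes. Whether the counting used strand is not given in the sources used here, and Cxcl16 values are uncertain to that degree.

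The promoters of the chromosome 5 members are shown because the neutrophil-attracting and the interferon-induced members are known to answer to different factors. Each line holds the 250 bases before the start of the canonical transcript in GRCm39, 5′ to 3′ on the gene's strand. For Cxcl5 the line stops where another transcript of the gene begins. Capitals mark matches, on either strand, to a κB motif (GGNNNTTCC), an ISRE-like motif (GAAANNGAA), an AP-1 motif (TGANTCA) or TATAAA, and a stretch that matches on both strands counts once. No 2 of the marked stretches overlap.
Cxcl1 (chr5:91038844-91039093, forward strand): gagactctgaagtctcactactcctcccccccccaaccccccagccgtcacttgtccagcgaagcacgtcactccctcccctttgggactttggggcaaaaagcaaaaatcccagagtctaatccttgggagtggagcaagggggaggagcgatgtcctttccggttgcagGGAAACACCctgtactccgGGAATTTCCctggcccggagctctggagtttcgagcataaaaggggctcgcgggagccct
Cxcl2 (chr5:91051480-91051729, forward strand): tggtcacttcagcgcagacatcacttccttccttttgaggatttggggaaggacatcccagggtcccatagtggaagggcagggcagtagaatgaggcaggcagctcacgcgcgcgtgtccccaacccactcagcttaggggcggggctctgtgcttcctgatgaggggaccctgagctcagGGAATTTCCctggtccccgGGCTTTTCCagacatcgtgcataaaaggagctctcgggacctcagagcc
Cxcl3 (chr5:90933712-90933961, forward strand): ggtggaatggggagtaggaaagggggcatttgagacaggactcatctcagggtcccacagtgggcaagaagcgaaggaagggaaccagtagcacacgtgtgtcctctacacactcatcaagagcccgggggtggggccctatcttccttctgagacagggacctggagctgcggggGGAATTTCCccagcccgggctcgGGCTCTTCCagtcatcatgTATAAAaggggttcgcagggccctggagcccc
Cxcl5 (chr5:90906987-90907185, forward strand): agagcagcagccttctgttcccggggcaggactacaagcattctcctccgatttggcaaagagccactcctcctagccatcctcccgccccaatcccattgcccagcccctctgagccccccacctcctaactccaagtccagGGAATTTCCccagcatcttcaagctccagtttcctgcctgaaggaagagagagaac
Cxcl9 (chr5:92475946-92476195, reverse strand): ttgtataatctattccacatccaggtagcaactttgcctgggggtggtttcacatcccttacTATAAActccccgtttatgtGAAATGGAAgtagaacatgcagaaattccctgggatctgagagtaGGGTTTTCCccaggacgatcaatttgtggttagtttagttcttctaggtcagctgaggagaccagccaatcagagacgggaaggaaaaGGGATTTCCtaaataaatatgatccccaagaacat
Cxcl10 (chr5:92496749-92496998, reverse strand): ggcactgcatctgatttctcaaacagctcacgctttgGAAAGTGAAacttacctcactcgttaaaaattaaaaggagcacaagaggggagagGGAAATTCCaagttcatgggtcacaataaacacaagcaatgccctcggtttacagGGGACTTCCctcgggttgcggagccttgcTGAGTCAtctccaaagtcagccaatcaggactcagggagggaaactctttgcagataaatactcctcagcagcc
The same κB stretch, GGAATTTCC, stood at 52 to 60 bases before the start of Cxcl1, at 60 to 68 bases for Cxcl2, at 66 to 74 bases for Cxcl3 and at 99 to 107 bases for Cxcl5. A match to the κB motif was present in 7 of the 8 members, all but Cxcl14, and in 16.1% of the promoters of 19141 protein-coding genes. The ISRE-like motif was found in Cxcl9, Cxcl10 and Cxcl14, against 7.32% of all promoters, and in none of the 4 neutrophil-attracting genes. The κB match of Cxcl16 (39 to 47 bases before the start) lies past the start of another transcript of that gene. So does the ISRE-like match of Cxcl14 (104 to 112 bases). The AP-1 motif was found in Cxcl10 alone among the members, against 5.99% of all promoters. TATAAA occurred in Cxcl3 and Cxcl9, against 10.6%. These matches are descriptions of the sequence, and binding was not measured.

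The first comparison asked how naive BMDMs responded to 10 ng/ml LPS. In LPS-stimulated against unstimulated BMDMs, 5 members rose and none fell: Cxcl1, Cxcl2, Cxcl3, Cxcl10 and Cxcl16. Of all tested genes, 24.3% rose and 26.9% fell. Cxcl1, Cxcl2 and Cxcl3 went from a few CPM at most to between 232 and 1720 CPM, and of the 2 interferon-induced members Cxcl10 rose. The comparison shares its unstimulated samples with that of priming, and the comparisons of LPS-tolerant BMDMs share the tolerant samples.

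Cxcl1 (KC) stood at 1.03, 0.792 and 1.07 CPM in the unstimulated samples R1 to R3. After the single dose it reached 1137, 626 and 524 CPM. The groups were far apart, and the rise was 9.61 on the log2 scale (SE 0.98, adjusted p = 5.35e-07), or 784-fold. Cxcl2 (MIP-2), the most abundant of the members after a single dose, went from 5.96, 4.05 and 3.03 CPM to 1720, 1105 and 1086 CPM. This was a rise of 8.23 (SE 0.61, adjusted p = 1.32e-08). Cxcl3, their close relative, went from 1.13, 0.616 and 1.07 CPM to 338, 232 and 386 CPM, a rise of 8.40 (SE 1.49, adjusted p = 0.000178). All pairs of samples with the same number showed these rises.

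Cxcl5, the sparsest of the neutrophil-attracting members, had no read in any unstimulated library. It had 1, 7 and 4 reads in the LPS-stimulated libraries R1 to R3, or 0.128, 0.52 and 0.424 CPM. Against a floor of 3 reads per unstimulated library, the mean was at least 1.24-fold higher. It did not pass the test (adjusted p = 0.138), but passed with the replicate block (adjusted p = 0.0379). In that fit, 29.5% of all tested genes were called higher.

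Cxcl10 (IP-10), a ligand of Cxcr3, stood at 9.76, 3.70 and 3.91 CPM without LPS and at 351, 279 and 144 CPM after the single dose. The groups did not overlap, and the rise was 5.49 (SE 0.50, adjusted p = 1.46e-07), or 44.8-fold. Without unstimulated R1, which had the highest of the 3 control levels, it was 6.10 (adjusted p = 3.09e-07). Cxcl9 (MIG), which shares the receptor, stayed sparse, with 9, 0 and 2 reads in unstimulated and 6, 14 and 7 reads in LPS-stimulated libraries. Its difference was 1.23 (SE 1.25, adjusted p = 0.434), with a 95% interval from -1.42 to 3.88. The depth of these libraries does not resolve a change of Cxcl9 of several fold in either direction.

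Cxcl16 was already abundant without LPS, at 159, 146 and 129 CPM, and reached 516, 631 and 574 CPM. It rose by 1.99 (SE 0.19, adjusted p = 2.19e-07), or 3.96-fold. Cxcl14 overlapped between the groups, with a difference of 0.53 (SE 0.43, adjusted p = 0.312) and a 95% interval from -0.37 to 1.44.

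**Figure D1:**
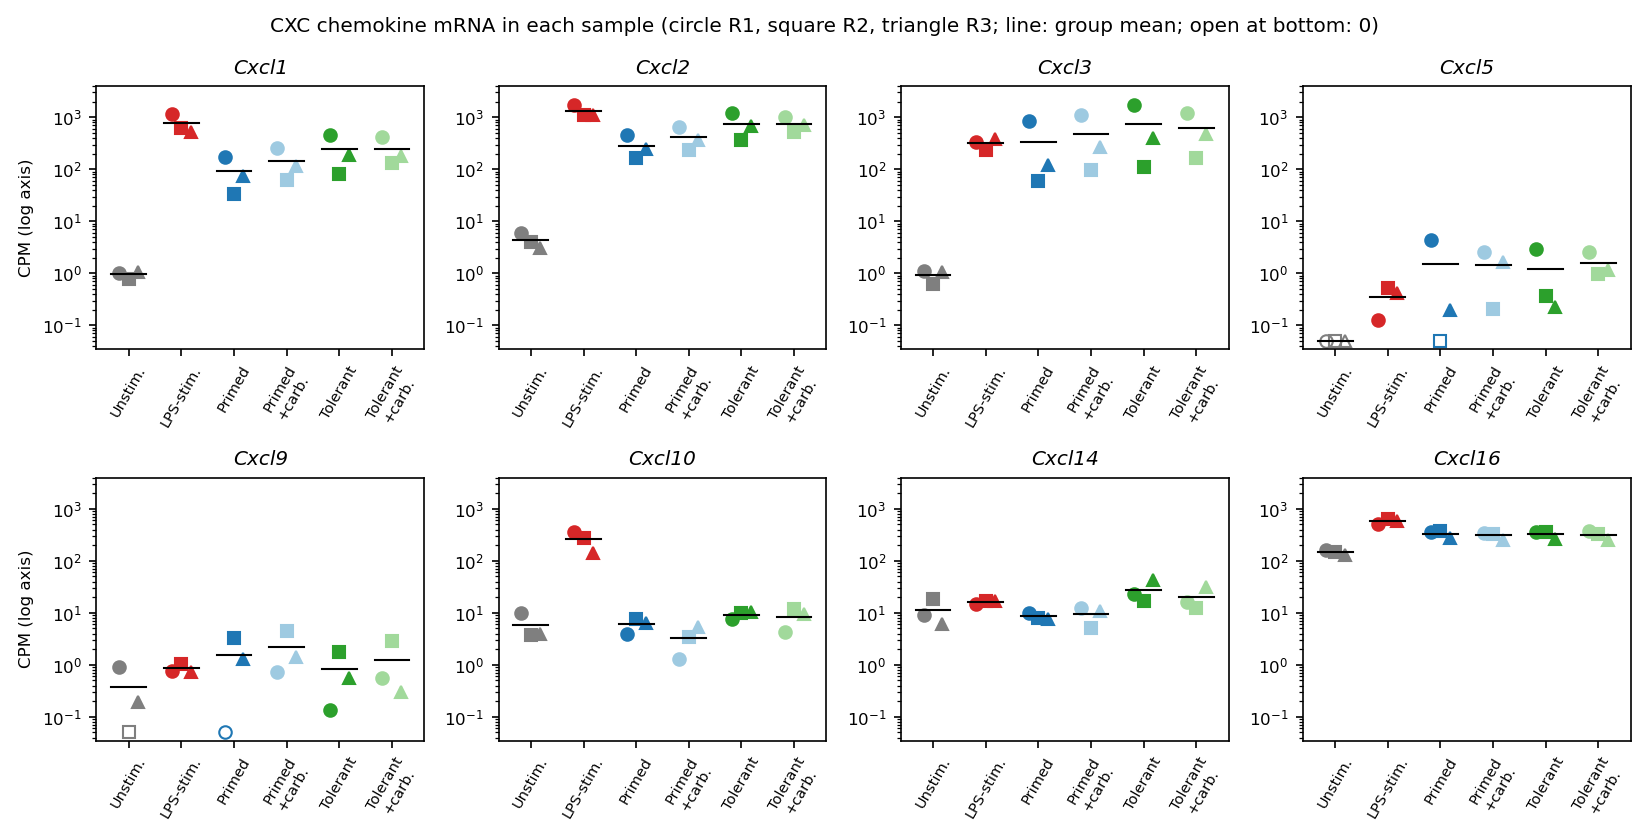
Level of each of the 8 members in CPM on a log axis in every sample, by group. Circles, squares and triangles are R1, R2 and R3, black lines are group means, and open symbols at the bottom are libraries with no read (a group mean of 0 is drawn there too). Cxcl1, Cxcl2 and Cxcl3 were high in all LPS groups, whereas Cxcl10 was high in the LPS-stimulated samples alone, at 144 to 351 CPM.

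The second comparison asked what 24 h of priming with the higher dose left behind. In LPS-primed against unstimulated BMDMs, all 4 neutrophil-attracting members and Cxcl16 rose, 5 in all, and none fell, while 12.1% of all tested genes rose and 13.1% fell. Because Cxcl5 entered the tests only through the groups that had been primed, its call cannot be weighed against that share. None of the interferon-induced members passed.

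Cxcl1 stood at 173, 33.4 and 73.8 CPM in the primed samples R1 to R3, a rise of 6.59 (SE 0.91, adjusted p = 3.67e-05). Cxcl2 stood at 449, 164 and 247 CPM, a rise of 6.05 (SE 0.56, adjusted p = 4.61e-07). Cxcl3 stood at 847, 59.0 and 120 CPM, a rise of 8.50 (SE 1.496, adjusted p = 0.000408). In each of the 3 genes R1 was the highest and R2 the lowest, and for Cxcl3 R1 was 14.4 times R2. Without primed R1 the rise of Cxcl3 was 6.57 (adjusted p = 0.00128) and that of Cxcl1 was 5.79 (adjusted p = 0.000119), so both calls held while the size moved.

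Cxcl5 had 39, 0 and 2 reads in the primed libraries, so R1 carried nearly all of them. Against the floor of 3 reads per library the mean was at least 5.36-fold higher than in unstimulated cells, and the adjusted p was 0.0356. Without primed R1 the adjusted p was 0.426, and without any single unstimulated library it was 0.0750 to 0.0900. The call for Cxcl5 therefore rested on single libraries.

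After 24 h of priming Cxcl10 stood at 3.87, 7.71 and 6.45 CPM, within the range of the unstimulated samples. The difference was 0.06 (SE 0.47, adjusted p = 0.945), with a 95% interval from -0.93 to 1.06. Cxcl9 had 0, 27 and 13 reads, and its difference of 2.04 (SE 1.22) had an adjusted p of 0.249. Cxcl16 stood at 357, 377 and 271 CPM, a rise of 1.21 (SE 0.18, adjusted p = 9.71e-05). Cxcl14, at 10.1, 7.83 and 7.66 CPM, overlapped the unstimulated samples (difference -0.38, SE 0.44, adjusted p = 0.583).

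The third comparison set LPS-tolerant against LPS-stimulated BMDMs, both 3 h after 10 ng/ml LPS but with and without earlier priming. Cxcl10 and Cxcl16 were lower in the tolerant cells and no member was higher. Of all tested genes, 16.2% were higher and 18.3% lower. In the fit with the block 4 members were lower, Cxcl1 and Cxcl2 being added, and 24.7% of all tested genes were called lower.

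Cxcl10 stood at 7.62, 9.74 and 10.3 CPM in the tolerant samples, against 144 to 351 CPM after the single dose. It was lower by 27.9-fold (log2 fold change -4.80, SE 0.48, adjusted p = 1.06e-06). Cxcl16 stood at 352, 358 and 264 CPM and was 1.77-fold lower (log2 fold change -0.82, SE 0.18, adjusted p = 0.00198), with no overlap between the groups.

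Cxcl1 stood at 458, 82.3 and 192 CPM in the tolerant samples, all below the 524 to 1137 CPM of the stimulated ones. The log2 fold change was -1.64 (SE 0.65), with an adjusted p of 0.0581 without the block. The replicate block gave -1.93 (SE 0.24, adjusted p = 4.14e-06), while the same-numbered samples differed by -1.31, -2.93 and -1.45. Cxcl2 stood at 1205, 371 and 694 CPM, and tolerant R1 lay above 2 of the 3 stimulated samples. Its log2 fold change was -0.79 (SE 0.44, adjusted p = 0.180) without and -0.91 (SE 0.17, adjusted p = 0.000288) with the replicate block. It was lower in 3 of 3 pairs, by -0.51, -1.58 and -0.645. The block assumes the same replicate shifts in both groups, but the stimulated samples spread less than the tolerant ones. The blocked SE and adjusted p of both genes may therefore overstate the precision of this comparison. Without tolerant R1, both genes passed in the fit without the block as well (Cxcl1 adjusted p = 0.0146, Cxcl2 adjusted p = 0.0465).

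Cxcl3 behaved otherwise. It stood at 1689, 113 and 396 CPM in the tolerant samples, so that R1 lay above and R2 below all stimulated samples. The log2 fold change was 1.20 (SE 1.00, adjusted p = 0.385), with a 95% interval from -0.92 to 3.32, and 2 of 3 pairs lay above 0. The replicate block gave 0.18 (95% interval -0.73 to 1.09). The pairs themselves differed by 2.32, -1.04 and 0.04, so that interval may be too narrow. Cxcl5 (22, 4 and 2 reads) and Cxcl9 (1, 19 and 5 reads) also overlapped the stimulated samples, with adjusted p = 0.407 and 1.00. Cxcl14 was at 23.4, 16.5 and 42.8 CPM, against 14.9 to 16.9 CPM (log2 fold change 0.77, SE 0.42, adjusted p = 0.176).

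The response to the second dose was read from LPS-tolerant against LPS-primed BMDMs. These groups also differ in the change of medium and in 3 h more of culture, which cannot be told apart from the dose here. Without the block 1 member, Cxcl14, was higher and none lower, beside 3.60% of all tested genes higher and 2.71% lower. Cxcl14 rose by 1.69 (SE 0.44, adjusted p = 0.0297), and its lowest tolerant sample, at 16.5 CPM, lay above its highest primed sample, at 10.1 CPM. The call was lost without primed R1, R2 or R3 (adjusted p 0.0558 to 0.113) and without tolerant R3 (adjusted p = 0.160).

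With the replicate block 3 members were higher, namely Cxcl1, Cxcl2 and Cxcl14, and 9.67% of all tested genes. For Cxcl1 the same-numbered samples differed by 1.41, 1.30 and 1.38 on the log2 scale, and for Cxcl2 by 1.42, 1.18 and 1.49. These differences hardly varied, although the levels themselves spread by 5.57-fold between tolerant samples for Cxcl1 and 3.25-fold for Cxcl2. Blocked, the rise was 1.36 for Cxcl1 (SE 0.24, adjusted p = 0.000837) and 1.38 for Cxcl2 (SE 0.17, adjusted p = 3.40e-05). Without it the adjusted p were 0.229 and 0.0700, and Cxcl2 passed without primed R1 (adjusted p = 0.0351) or tolerant R2 (adjusted p = 0.0342). Cxcl3 was higher in all 3 pairs too, by 1.00, 0.94 and 1.72, but did not pass in either fit (adjusted p = 0.592 without and 0.0647 with the replicate block).

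Cxcl10 differed by 0.98, 0.34 and 0.67 within the pairs, and by 0.62 in the fit (SE 0.46, adjusted p = 0.488). Cxcl16 did not move measurably, with a difference of -0.05 and a 95% interval from -0.43 to 0.34. For Cxcl5 and Cxcl9 the intervals ran from -2.96 to 2.08 and from -3.14 to 1.52.

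The difference between the 2 responses was tested in one fit, as the second response (LPS-tolerant minus LPS-primed) minus the first (LPS-stimulated minus unstimulated). The second response again includes the change of medium and the longer culture. Of the members, 5 passed with a negative and none with a positive difference, beside 13.3% and 10.5% of all tested genes. It was -8.23 for Cxcl1 (SE 1.12, adjusted p = 3.60e-05), -6.83 for Cxcl2 (SE 0.70, adjusted p = 1.75e-06) and -7.30 for Cxcl3 (SE 1.74, adjusted p = 0.00525). It was -4.86 for Cxcl10 (SE 0.66, adjusted p = 3.43e-05) and -2.03 for Cxcl16 (SE 0.26, adjusted p = 1.96e-05). These 5 calls held with each of the 12 libraries left out in turn. The value for Cxcl3 was -5.37 without primed R1 and -8.85 without tolerant R1, that for Cxcl1 was -7.43 and -9.07, and that for Cxcl10 was -5.46 without unstimulated R1.

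A smaller second response did not mean the same level for each gene. The difference also equals tolerant minus stimulated, less the rise that priming left. These 2 parts were -1.64 and 6.59 for Cxcl1, -0.79 and 6.05 for Cxcl2, -0.82 and 1.21 for Cxcl16, and -4.80 and 0.06 for Cxcl10. For Cxcl1, Cxcl2 and Cxcl16 the rise left by priming was thus the larger part. For Cxcl10 both the starting level and the level after the second dose were low (mean 6.01 ± 1.96 and 9.21 ± 1.41 CPM, SD, n = 3). For Cxcl3 the starting level was already high (mean 342 ± 438 CPM, SD, n = 3), and the tolerant mean of 732 ± 840 CPM (SD, n = 3) did not differ measurably from the stimulated mean of 319 ± 79.1 CPM (SD, n = 3). Cxcl5 (-5.31, SE 2.93, adjusted p = 0.222), Cxcl9 (-2.04, SE 1.67, adjusted p = 0.422) and Cxcl14 (1.16, SE 0.61, adjusted p = 0.196) did not pass.

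**Figure D2:**
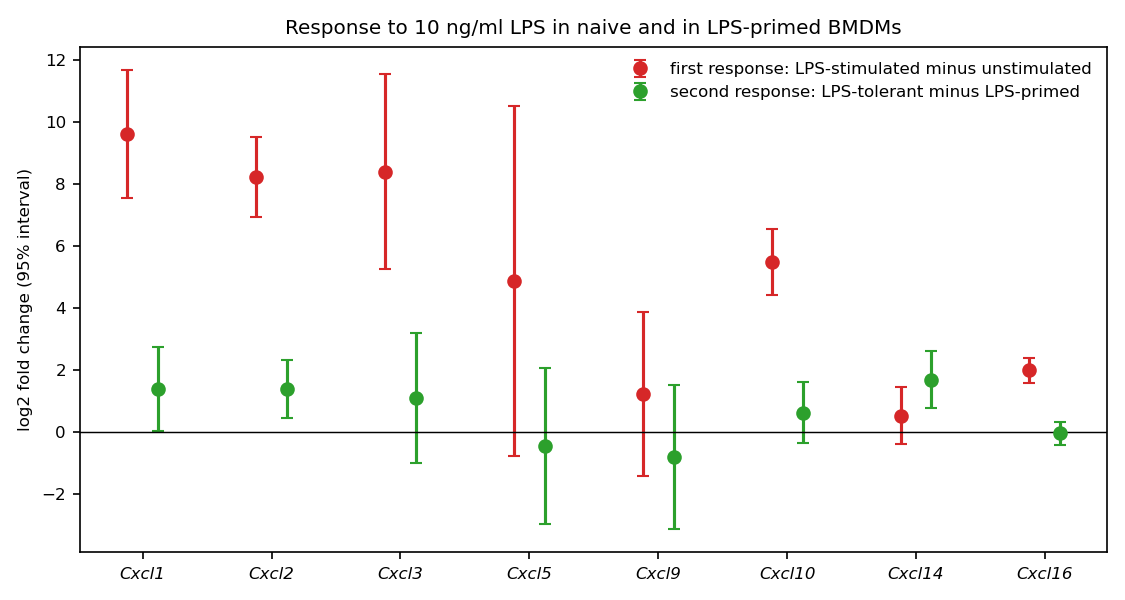
Log2 fold change of each member in the first response (red, LPS-stimulated minus unstimulated) and in the second response (green, LPS-tolerant minus LPS-primed), with 95% intervals from the fit without the block. For Cxcl1 the first response was 9.61 and the second 1.39, and for Cxcl10 they were 5.49 and 0.62.

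Carboplatin was compared within the primed and within the tolerant state. Without the block no member passed in either state. In LPS-primed BMDMs, 0.0973% of all tested genes were higher and 1.11% lower at the limit of 0.25, and in LPS-tolerant BMDMs 0.239% and 1.42%. Of the 11305 tested genes, 776 in the primed and 761 in the tolerant state had an unadjusted p under 0.05. Genes without a difference also reach that limit.

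In the primed state, the same-numbered samples nevertheless differed in the same direction for the 3 abundant neutrophil-attracting genes. Cxcl1 stood at 258, 61.4 and 117 CPM with carboplatin, above its partner without the drug by 0.58, 0.88 and 0.67 on the log2 scale. Cxcl2 stood at 644, 239 and 364 CPM, above its partner by 0.52, 0.55 and 0.56. Cxcl3 stood at 1092, 95.9 and 273 CPM, above its partner by 0.37, 0.70 and 1.19. With the replicate block 2 members, Cxcl1 (0.68, SE 0.24, adjusted p = 0.192) and Cxcl2 (0.54, SE 0.17, adjusted p = 0.138), passed the limit of 0.25, beside 2.71% of all tested genes called higher. Both would miss a limit of 0.05. Without the block the adjusted p were 0.965 and 0.936.

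Cxcl10 was lower in all 3 pairs with carboplatin in the primed state, at 1.31, 3.43 and 5.30 CPM, but the groups overlapped and the difference of -0.80 (SE 0.50, adjusted p = 0.862) did not pass in either fit. For Cxcl16 the difference was -0.12 with a 95% interval from -0.51 to 0.26, and for Cxcl14 it was 0.12 with an interval from -0.82 to 1.06. Cxcl5 (18, 2 and 15 reads) and Cxcl9 (5, 44 and 13 reads) had intervals from -2.58 to 2.37 and from -1.62 to 2.73.

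In the tolerant state the pairs did not share a direction for the neutrophil-attracting genes. Cxcl1 stood at 421, 133 and 184 CPM with carboplatin, and the pairs differed by -0.12, 0.69 and -0.06. Cxcl2 stood at 1004, 521 and 713 CPM, with differences of -0.26, 0.49 and 0.04. Cxcl3 stood at 1185, 162 and 483 CPM, with differences of -0.51, 0.52 and 0.29. The intervals with the replicate block were -0.36 to 0.63 for Cxcl1, -0.29 to 0.43 for Cxcl2 and -0.82 to 0.94 for Cxcl3, and those without it were wider. Cxcl10, at 4.37, 11.7 and 9.38 CPM, differed by -0.11 (95% interval -1.07 to 0.85). Cxcl14 was lower in 3 of 3 pairs (15.9, 12.6 and 31.7 CPM, difference -0.45, SE 0.42, adjusted p = 1.00), and Cxcl16 was at 369, 321 and 251 CPM (difference -0.05, 95% interval -0.43 to 0.33). Cxcl5 (18, 8 and 12 reads) and Cxcl9 (4, 23 and 3 reads) had intervals from -2.10 to 2.98 and from -1.90 to 2.87.

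The effect of carboplatin was not shown to differ between the 2 states. For that difference no gene passed in either direction (0% and 0%), and DESeq2 called 0 genes as well. Of the 11305 tested genes, 131 had an unadjusted p under 0.05. It was -0.63 for Cxcl1 (95% interval -2.52 to 1.27), -0.56 for Cxcl2 (-1.85 to 0.74), -0.77 for Cxcl3 (-3.73 to 2.18) and 0.69 for Cxcl10 (-0.73 to 2.12). The other members had intervals that held 0 as well.

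The second dose was also followed in carboplatin-treated cells, by LPS-tolerant + carboplatin against LPS-primed + carboplatin, with the same limit of medium and culture time. No member passed without the block, beside 1.29% of all tested genes higher and 0.690% lower. The replicate block made 2 members higher, Cxcl1 by 0.82 (SE 0.24, adjusted p = 0.0390) and Cxcl2 by 0.91 (SE 0.17, adjusted p = 0.00293), as were 5.28% of all tested genes. Cxcl10 was higher in 3 of 3 pairs, by 1.74, 1.77 and 0.82, with overlapping groups (1.31, SE 0.49, adjusted p = 0.201). Cxcl14 was also higher in 3 of 3 pairs, with no overlap of the groups, by 1.12 (SE 0.44, adjusted p = 0.230). The differences were 0.33 for Cxcl3 (SE 0.99), 0.11 for Cxcl5 (SE 1.17), -0.88 for Cxcl9 (SE 1.06) and 0.03 for Cxcl16 (SE 0.18), and none of them passed.

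**Figure D3:**
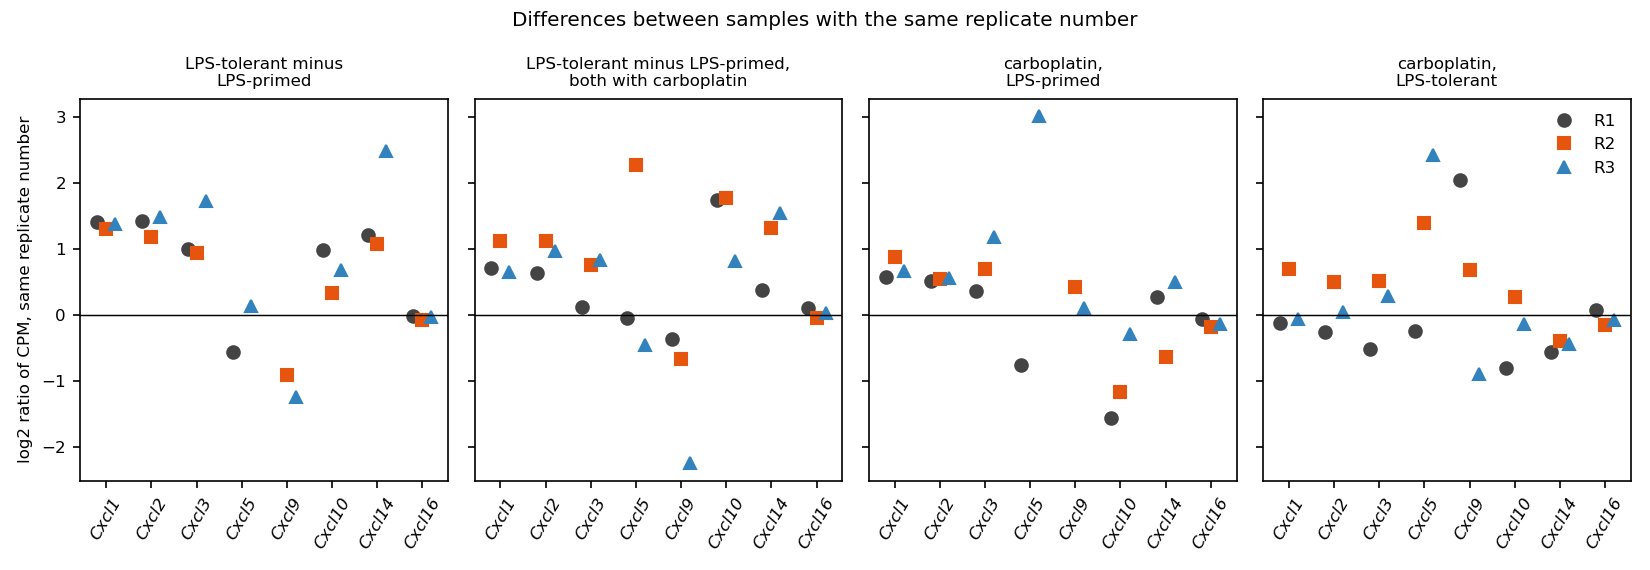
Log2 ratio of CPM between samples with the same replicate number for each member, in 4 comparisons (circles R1, squares R2, triangles R3; pairs with a level of 0 are not drawn). Cxcl1 and Cxcl2 lay above 0 in all pairs of the first 3 panels, at 0.52 to 1.49, and on both sides of 0 for carboplatin in LPS-tolerant cells.

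Over the 6 groups, the order of mean levels differed between the members. For Cxcl1 it ran from LPS-stimulated (763 ± 328 CPM, SD, n = 3) through LPS-tolerant + carboplatin (246 ± 154), LPS-tolerant (244 ± 193), LPS-primed + carboplatin (146 ± 101) and LPS-primed (93.4 ± 71.8) to unstimulated (0.965 ± 0.151). Only the first and the last step were free of overlap between samples. For Cxcl2 the order was the same but for LPS-tolerant (756 ± 421 CPM) and LPS-tolerant + carboplatin (746 ± 243 CPM), which changed places, and only the last step, from LPS-primed (287 ± 147 CPM) to unstimulated (4.34 ± 1.49 CPM), was free of overlap. For Cxcl3 the 5 LPS groups all overlapped from one step to the next, with LPS-tolerant the highest (732 ± 840 CPM) and LPS-stimulated the lowest of them (319 ± 79.1 CPM). That order rested on R1, since among the R2 samples the LPS-stimulated one was the highest, at 232 CPM. For Cxcl10 the first step alone, from LPS-stimulated (258 ± 105 CPM) to LPS-tolerant (9.21 ± 1.41 CPM), had no overlap, and the 5 groups beneath it overlapped from step to step. For Cxcl16 the LPS-stimulated group (574 ± 57.9 CPM) lay above and the unstimulated group (145 ± 14.6 CPM) below 4 groups that overlapped, with means of 307 to 335 CPM. Cxcl5, Cxcl9 and Cxcl14 had neighbours that overlapped throughout, save for Cxcl5 between LPS-stimulated and unstimulated.

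To compare the members with one another, CPM were divided by the length of the canonical transcript in kilobases. Without LPS, Cxcl16 was the most abundant member, at 48.4 ± 4.90 CPM per kb (SD, n = 3), and Cxcl10 came next at 5.26 ± 3.12. After the single dose the order was Cxcl2 (1173 ± 325 CPM per kb), Cxcl1 (795 ± 342), Cxcl3 (314 ± 77.8), Cxcl10 (234 ± 95.4) and Cxcl16 (192 ± 19.4). In LPS-tolerant BMDMs Cxcl3 (721 ± 827 CPM per kb) and Cxcl2 (681 ± 378) led, Cxcl1 followed at 255 ± 202, and Cxcl10 was at 8.37 ± 1.28. The first place of Cxcl3 in that mean rested on R1 (1662 against 1084 CPM per kb for Cxcl2), since Cxcl2 was the higher in R2 (333 against 111) and R3 (625 against 389.7).

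Summed per kilobase, the 4 neutrophil-attracting members can be set against Cxcl9 and Cxcl10 in each sample, as a description. In unstimulated samples the ratio was 0.822, 1.51 and 1.36. In LPS-stimulated samples it was 9.61, 7.39 and 14.5, with both sums high. In LPS-tolerant samples it was 463, 56.1 and 127, and in LPS-primed samples 405, 29.5 and 66.2. In the carboplatin groups it was 1340, 80.4 and 136 in the primed state and 603, 66.0 and 152 in the tolerant state. All 12 samples that had been primed therefore stood above the LPS-stimulated samples in this ratio, with R1 the highest and R2 the lowest in each of the 4 groups. Cxcl3 made up 51.5%, 20.9% and 32.1% of the neutrophil-attracting sum in LPS-tolerant samples R1 to R3 but 10.9%, 12.2% and 20.0% in LPS-stimulated samples.

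**Figure D4:**
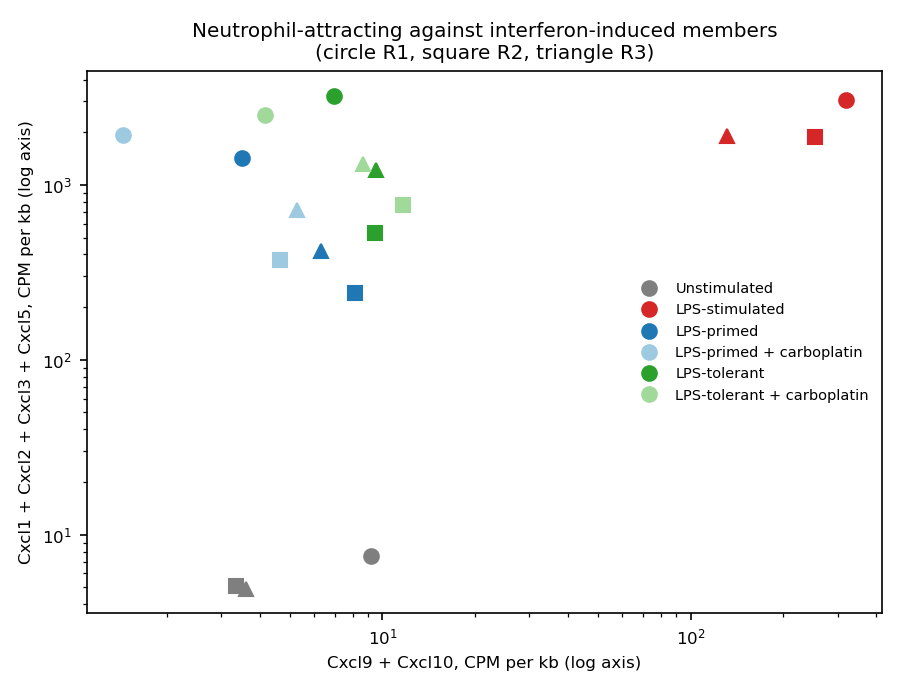
Summed level of Cxcl1, Cxcl2, Cxcl3 and Cxcl5 against that of Cxcl9 and Cxcl10, in CPM per kb on log axes, 1 point per sample (colour: group; circle, square and triangle: R1, R2 and R3). LPS-stimulated samples were high on both axes, at 131 to 319 CPM per kb for Cxcl9 and Cxcl10, and the primed and tolerant samples on the vertical axis alone.

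The spread between replicates was itself a pattern of these genes. In the 4 groups that had been primed, R1 was the highest and R2 the lowest sample for Cxcl1, Cxcl2 and Cxcl3, as log2 deviations from the group mean of 1.20, -1.17 and -0.03 for Cxcl1 in LPS-primed cells and of 2.22, -1.62 and -0.60 for Cxcl3. For Cxcl9, R2 was the highest in all 4 groups, with a deviation of 1.75 in R2 and -2.29 in R1 of the LPS-primed group. After the single dose the deviations were smaller, at 0.12, -0.43 and 0.31 for Cxcl3. The summed level of the 8 neutrophil markers, nearly all of it S100a8, had the same order of replicates in those groups. It was 47.1, 9.06 and 22.0 CPM in LPS-primed samples R1 to R3, 58.3, 15.3 and 30.1 CPM in LPS-primed + carboplatin, 57.7, 15.03 and 34.3 CPM in LPS-tolerant and 51.1, 20.1 and 29.5 CPM in LPS-tolerant + carboplatin samples. Of the other markers, Ly6g, Mpo and Ngp had no read in these libraries, Camp had 0 to 14 reads against 0 in unstimulated ones, S100a9 had 0 to 8 reads, and Elane and Ltf had at most 2. The part of the S100a8 level in the result was not tested.

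The other CXC ligands that could be tested, Pf4 (platelet factor 4) and Ppbp, both neighbours of Cxcl3 and Cxcl5 in the cluster, were followed in the same comparisons. In LPS-primed BMDMs both rose, as 2 of the 2 tested of 6 ligands listed, beside 12.1% of all tested genes. Pf4 rose by 5.61 (adjusted p = 1.89e-07) and Ppbp by 7.96 (adjusted p = 2.61e-05). After the single dose they rose by 1.33 (adjusted p = 0.0119) and 3.76 (adjusted p = 0.0430), beside 24.3% of all tested genes. Ppbp had 0 to 1 read in unstimulated, 4 to 9 in LPS-stimulated and 31 to 202 in LPS-primed libraries. It entered the tests through the groups that had been primed, and its rises are folds over a level near 0. In LPS-tolerant against LPS-stimulated BMDMs both were higher, beside 16.2% of all tested genes. The differences were 4.59 for Pf4 (adjusted p = 9.10e-07) and 4.41 for Ppbp (adjusted p = 0.000158) in the fit without the block. Pf4 had a mean of 1488 ± 672 CPM (SD, n = 3) in LPS-tolerant and 61.7 ± 9.81 CPM (SD, n = 3) in LPS-stimulated cells.

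Among the receptors, 3 of the 10 listed could be tested. In LPS-primed BMDMs 1 rose and 2 fell, beside 12.1% and 13.1% of all tested genes, and after the single dose 1 fell, beside 26.9%. Cxcr2, the receptor of the neutrophil-attracting members, had no read in any library. Cxcr4, the receptor of Cxcl12, fell by 4.54 after the single dose (adjusted p = 2.81e-08) and was higher by 2.33 in tolerant than in stimulated cells (adjusted p = 3.93e-05). Cxcr3, the receptor of Cxcl9 and Cxcl10, fell by 3.09 in LPS-primed BMDMs (adjusted p = 0.000178), from 8.70 ± 1.94 to 1.02 ± 0.405 CPM (SD, n = 3). Ackr3 had no read in the unstimulated and LPS-stimulated libraries and entered the tests through the groups that had been primed.

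The regulators of NF-κB and of mRNA decay were given as a list of 16 genes, all tested. In LPS-stimulated against unstimulated BMDMs 15 of them rose and none fell, beside 24.3% and 26.9% of all tested genes, with a median of 3.21 beside -0.09 over all genes tested. Tnfaip3, an inhibitor of NF-κB signalling, rose by 7.02 (adjusted p = 2.26e-13) and Nfkbiz, an IκB protein that acts in the nucleus, by 5.15 (adjusted p = 7.79e-09). In LPS-primed BMDMs 10 rose and none fell, beside 12.1% and 13.1% (median 1.26). In LPS-tolerant against LPS-stimulated BMDMs all 16 were lower, beside 18.3% of all tested genes, with a median of -1.54. Zfp36 (tristetraprolin), which destabilises mRNAs with AU-rich elements, had a log2 fold change of -3.72 (adjusted p = 1.65e-09). Between LPS-tolerant and LPS-primed BMDMs 3 were higher and 1 lower, beside 3.60% and 2.71%. For carboplatin none of them passed in either state in the fit without the block.

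Of the interferon list of 12 genes, 11 were tested. After the single dose 4 rose and 1 fell, beside 24.3% and 26.9% of all tested genes. Irf1, a factor that drives Cxcl9 and Cxcl10, rose by 1.85 (adjusted p = 4.84e-06), the interferon receptor chain Ifnar1 rose by 1.95 (adjusted p = 1.54e-05), and Irf8 fell by 2.35 (adjusted p = 3.88e-09). In LPS-primed BMDMs, where Cxcl10 did not pass, 4 rose and 0 fell, beside 12.1% and 13.1%, led by Irf7 (1.85, adjusted p = 0.0164). In LPS-tolerant against LPS-stimulated BMDMs 2 were higher and 3 lower, beside 16.2% and 18.3% of all tested genes. Irf1 was at -2.83 (adjusted p = 1.64e-07), Irf8 at 2.32 (adjusted p = 1.02e-08) and Irf7 at 1.63 (adjusted p = 0.0239). Ifnb1, the interferon β gene, had 5 to 24 reads in LPS-stimulated libraries, 1 to 6 in LPS-tolerant, 0 to 6 in LPS-primed and 0 in unstimulated ones (0 and 0 to 4 in the primed and tolerant carboplatin groups), and was too low to be tested. In LPS-tolerant against LPS-primed BMDMs 4 of the list were lower and none higher, beside 2.71% and 3.60%, led by Stat2 (-1.15, adjusted p = 0.0333). In the fit without the block, 1 of them, Irf8, was lower with carboplatin in LPS-tolerant BMDMs (-0.53, adjusted p = 0.180, limit 0.25). None passed in LPS-primed BMDMs.

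Of 8 proteases that shed or trim CXC chemokines, 7 were tested. In LPS-primed BMDMs 5 rose, beside 12.1% of all tested genes, among them Mmp9 by 5.74 (adjusted p = 4.15e-05), Mmp8 by 4.09 (adjusted p = 0.00375) and Adam17 by 1.18 (adjusted p = 0.00306). After the single dose 3 rose, beside 24.3% of all tested genes, with Mmp13 at 7.66 (adjusted p = 3.15e-06). In LPS-tolerant against LPS-stimulated BMDMs Mmp9 (4.66, adjusted p = 6.52e-05) and Mmp8 (4.61, adjusted p = 0.00131) were higher and Mmp13 (-3.98, adjusted p = 0.000598) was lower. Of all tested genes, 16.2% were higher and 18.3% lower.

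The profiles most like those of the members were sought over the 6 group means of log2 CPM, each gene centred on its own mean, among 11297 other tested genes. The measure is the root mean square difference over the 6 groups. For Cxcl2 the nearest were Gja1 (0.25, beside a range of 8.18 of the Cxcl2 profile itself) and Slc7a2 (0.41), and for Cxcl1 they were Gja1 (0.39) and Il1a (0.47). For Cxcl3 they were Acod1 (0.46) and Mmp14 (0.51), and for Cxcl10 they were Plet1 (0.37) and Csf2 (0.40). For Cxcl16 they were Agfg1 (0.06) and Ube2f (0.09), and for Cxcl14 Piezo1 (0.09) and Havcr2 (0.16). For the sparse Cxcl5 they were Fos (0.18) and Adgrf1 (0.22), and for Cxcl9 Tgfbr3l (0.17) and Tbl2 (0.21).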

How the data were processed

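mRNA of 18 BMDM cultures, 3 biological replicates in each of 6 groups, was sequenced from TruSeq stranded mRNA libraries as paired ends. The deposited values are counts per gene symbol that the authors made by aligning reads to GRCm39 with HISAT2 and counting with HTSeq. Tool versions, annotation and the strand option are not given in the sources used here. The tally lines of HTSeq, 41.5% to 46.9% of the reads, were left out.

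Groups and replicate numbers came from the sample labels. Genes with at least 10 counts in enough samples for the smallest group and 15 in all (edgeR's filter) were tested by edgeR's quasi-likelihood test (edgeR 4.0.16, R 4.3.3) in one fit over all 6 groups with TMM scaling, and p were adjusted by Benjamini-Hochberg over the 11305 genes. The step was tested on simulated data. A floor of 3 counts per library stands for 0, and intervals are 95% intervals of the fit. The depth of 6869667 to 14708099 read pairs leaves Cxcl5 and Cxcl9 with at most 44 reads per library. Promoters and positions were read from GRCm39 with the GENCODE annotation.

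In every comparison of 2 groups the deviations of all 3 same-numbered pairs correlated, the lowest r being 0.183, so the replicate numbers were taken to pair the samples. They were not taken to do so for the second response minus the first, where the lowest r was 0.0631. For LPS-stimulated against unstimulated, 1 r between different numbers (0.261) lay above that of the R3 pair (0.189). The pairing is less sure there, and the blocked call of Cxcl5 after the single dose relies on it. Alternatives were a fit with the replicate block, DESeq2 1.42.0, other scalings, no filter, the compared groups alone and each replicate left out.

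All members are named in each comparison. Of the other lists, at most 4 genes that passed with the largest change are named per comparison. Their calls are from the fit without the block alone. The members and lists were chosen with earlier results of these data known.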

Additional observations from a re-analysis of the deposited data

Results flagged for a closer look

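For 5 members the response to the second dose (LPS-tolerant minus LPS-primed) differed from the response to the first dose (LPS-stimulated minus unstimulated) by a test of the difference itself. The second response includes the change of medium and the longer culture. It also started from a level that priming had raised for Cxcl1, Cxcl2, Cxcl3 and Cxcl16, by 6.59, 6.05, 8.50 and 1.21. On the log2 scale the difference was -8.23 for Cxcl1, -6.83 for Cxcl2, -7.30 for Cxcl3, -4.86 for Cxcl10 and -2.03 for Cxcl16, and the adjusted p (edgeR) were 3.60e-05, 1.75e-06, 0.00525, 3.43e-05 and 1.96e-05. The LPS-stimulated sample was above the unstimulated one in 3 of 3 pairs for each of these genes. The LPS-tolerant sample was above the LPS-primed one in 3 of 3 pairs for Cxcl1, Cxcl2, Cxcl3 and Cxcl10 and in 0 of 3 pairs for Cxcl16.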

How the results depend on the processing

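Of the 5 members that differed between the responses and the 5 that rose after the single dose, each kept its call under every alternative run. The count of members that were lower in tolerant than in stimulated cells was 2, and 4 with the replicate block (2 to 4 with 1 library left out). The count higher in LPS-tolerant than in LPS-primed BMDMs was 1, and 3 with the block, 2 without the filter and 2 by DESeq2 (0 to 2 with 1 library left out). In the blocked fit 2 members were higher for tolerant against primed cells with carboplatin and 2 for carboplatin in LPS-primed cells, each against 0. Beyond the 9 calls given in the text, the block changed no other call of a member. Over all genes, the passing numbers moved by over 1.5 times with the block for priming (2847 to 4367), second minus first response (2691 to 4091), tolerant against primed (713 to 2034; DESeq2 1116), the same with carboplatin (224 to 1040; DESeq2 519), carboplatin in primed (136 to 890; DESeq2 300) and in tolerant cells (187 to 784; DESeq2 304). Single calls gained were Cxcl1 for tolerant against stimulated and Cxcl2 for tolerant against primed without the filter, and Cxcl5 after the single dose (adjusted p = 0.0311) and Cxcl2 for tolerant against primed (adjusted p = 0.0212) by DESeq2. The cause was not tested.

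No called value turned its sign. Uncalled values that did were, by library size alone, Cxcl10 in primed (-0.17), Cxcl16 in tolerant against primed cells with carboplatin (-0.032), and Cxcl2 (0.051) and Cxcl16 (0.0104) for carboplatin in tolerant cells. The block turned Cxcl9 in tolerant against stimulated (-0.19), Cxcl5 for carboplatin in primed (0.39), and Cxcl2 (0.074) and Cxcl3 (0.058) for carboplatin in tolerant cells. Cxcl9 in tolerant against stimulated also turned with RLE factors (-0.018) and DESeq2 (-0.060), and Cxcl9 for the difference of carboplatin effects with DESeq2 (0.022). Library size alone moved the median of all genes from -0.02 to -0.26 for priming, from -0.09 to -0.43 for the single dose, from -0.01 to -0.11 for tolerant against primed and from 0.06 to 0.30 for second minus first.

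With 1 library left out, 32 uncalled values turned in some fit, and these are their ranges. For priming they were Cxcl10 -0.17 to 0.67 and Cxcl14 -0.66 to 0.19. For tolerant against stimulated, Cxcl3 -0.33 to 1.71, Cxcl5 -0.31 to 2.06 and Cxcl9 -1.23 to 0.45. For tolerant against primed, Cxcl3 -0.44 to 3.03, Cxcl5 -2.32 to 3.23, Cxcl9 -2.05 to 0.35 and Cxcl16 -0.18 to 0.083. For the same with carboplatin, Cxcl3 -0.59 to 1.72, Cxcl5 -0.44 to 0.76, Cxcl9 -2.39 to 0.16 and Cxcl16 -0.11 to 0.17. For carboplatin in primed, Cxcl1 -0.065 to 1.44, Cxcl3 -0.89 to 2.44, Cxcl5 -0.76 to 3.56, Cxcl9 -0.48 to 1.71, Cxcl14 -0.11 to 0.43 and Cxcl16 -0.26 to 0.018. For carboplatin in tolerant, Cxcl1 -0.62 to 0.85, Cxcl2 -0.35 to 0.49, Cxcl3 -1.18 to 1.27, Cxcl5 -0.062 to 2.31, Cxcl9 -1.03 to 1.72, Cxcl10 -0.40 to 0.19, Cxcl14 -0.95 to 0.017 and Cxcl16 -0.18 to 0.088. For the difference of carboplatin effects, Cxcl1 -1.42 to 0.20, Cxcl3 -2.71 to 0.76, Cxcl5 -3.12 to 2.42, Cxcl9 -1.58 to 1.17 and Cxcl16 -0.080 to 0.21.

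DESeq2 gave no adjusted p for Cxcl5 and Cxcl9 for carboplatin in tolerant cells, and with the compared groups alone 9 values were lost to the filter. A group left with 2 libraries was assumed to vary like the others. Depth limits Cxcl5 and Cxcl9, with 0 to 44 reads per library.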
